A study of Mus musculus with 6 samples.

Results

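The genes described here are 10 members of the Bcl2 family, which governs whether a cell keeps its mitochondria intact or dies by apoptosis: the survival genes *Bcl2*, *Bcl2l1* and *Mcl1*, the effectors *Bax* and *Bak1*, and the BH3-only genes *Bcl2l11*, *Bbc3*, *Pmaip1*, *Bid* and *Bad*. Every array probe whose transcript accession belongs to one of these genes was taken, which gave 19 probes among the 56601 probes tested, and 10 genes among the 23462 named genes. They were measured on 6 gene expression arrays of microglia, the resident macrophages of the brain, sorted as CD45lowCD11b+Cx3cr1+ cells from young mice. The 3 control samples came from Bhlhe41 dTomato-Cre/+ mice (B41HET) and the 3 knockout samples from Bhlhe41 dTomato-Cre/dTomato-Cre mice (B41KO). Both genotypes thus carry the dTomato and Cre cassette in at least 1 copy of *Bhlhe41*, driven by the promoter of that gene, and no wild-type samples were analysed here. The cassette ends translation of *Bhlhe41*, a basic helix-loop-helix repressor, so the comparison asks how the family differs between mice with 1 and with no working copy. By the methods, several mice were pooled for a sample, whereas the labels speak of 3 mice per genotype.

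The family works by binding among its own members. *Bax* and *Bak1* encode proteins that open pores in the outer mitochondrial membrane and release cytochrome c, which starts the caspase cascade. The products of *Bcl2*, *Bcl2l1* (Bcl-xL) and *Mcl1* hold them back, and the BH3-only proteins relieve that restraint or activate the effectors directly. Microglia are long-lived cells that depend on signalling through the receptor *Csf1r* for their survival. Much of the family is regulated at the protein level, which an array does not measure.

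On each array 70.1 to 75.5% of probes were well above background, and no spot was saturated. Arrays of the same genotype correlated at r = 0.989 to 0.993 and arrays of different genotypes at r = 0.985 to 0.989, across probes. The cells carried the microglial label: all 12 microglial markers, *Tmem119* and *P2ry12* among them, were above background on all 6 arrays, and their summed signal was 17.56 to 17.69 on the log2 scale in B41HET and 17.52 to 17.60 in B41KO. Of the 12, 1 was called lower, *Fcrls* (log2 fold change -0.76, adjusted p = 0.00584, limma), and *P2ry12* had a log2 fold change of -0.29 (adjusted p = 0.0607, limma). The 12 neutrophil and monocyte markers were above background as well, with 10 called lower in B41KO and a summed log2 signal of 14.96 to 15.13 in B41HET against 12.54 to 12.67 in B41KO. Of 8 border macrophage markers 5 were called lower (summed log2 signal of 8.79 to 8.91 against 7.96 to 8.02). Of the markers of other cells, 1 of 7 for B cells, 0 of 7 for T and NK cells and 2 of 8 for endothelium were called lower. For oligodendrocytes it was 1 of 8, and for astrocytes and neurons 0 of 8 each, with no marker in any of these lists called higher. The endothelial markers called were *Pecam1* (log2 fold change -1.68) and *Ly6c1* (-1.79). The summed log2 signal of the 8 was 10.18 to 10.31 against 8.67 to 8.85. *Cldn5* (-0.13) and *Kdr* (-0.01) were above background and not called, and *Ptprb*, *Cdh5*, *Tek* and *Flt1* were not well above background. Nor were 4 of the neuron, 2 of the B cell and 1 of the T and NK cell markers on any array. The transcript of *Bhlhe41* itself was not lower in B41KO (log2 fold change of 0.38 and 0.33 on its 2 probes, adjusted p = 0.33 and 0.204, limma), so it does not check the labels. All values below are quantile-normalized log2 intensities, and a fold change is B41KO minus B41HET on that scale. To be called, a probe needed an adjusted p (limma, Benjamini-Hochberg over the whole array) of at most 0.05 together with a log2 fold change of at least 0.5 in size. With 3 samples against 3, an exact permutation test of a single probe cannot go below p = 0.1, two-sided, and every probe without overlap between the genotypes reached that value. The arrays measure the sorted cells as a whole, so fewer cells of a type and less RNA per cell cannot be told apart.

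In B41KO microglia, *Bcl2l1* was called lower on 2 of its 5 probes, and none of the 5 overlapped between the genotypes. *Bax* was called higher on 1 of its 2 probes, and the other had a log2 fold change of 0.07. Neither gene kept its call in most fits with a sample left out. *Mcl1*, *Bak1* and the BH3-only genes were not called. Among the 19 probes, 2 were called lower, both of *Bcl2l1*, and 2 higher, of *Bax* and of *Bcl2*. The *Bcl2* probe among these was at or near background in both genotypes. Of all probes tested, 5.09% were called, 1.72% higher and 3.38% lower. By the adjusted p alone 6 member probes passed, against 6.75% of all probes. By the brightest probe of each gene, 1 member gene was called higher and 1 lower out of 10, where 5.49% of all genes were called, 1.44% higher and 4.05% lower. The genotypes did not overlap on 11 of the 19 probes, or 57.9%, against 29.6% of all probes. Of the 11, 5 are probes of *Bcl2l1* and 2 of *Bcl2*, the near-background probe among them. The median log2 fold change over the member probes was -0.08, against 0.014 over all probes.

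**Figure D1:**
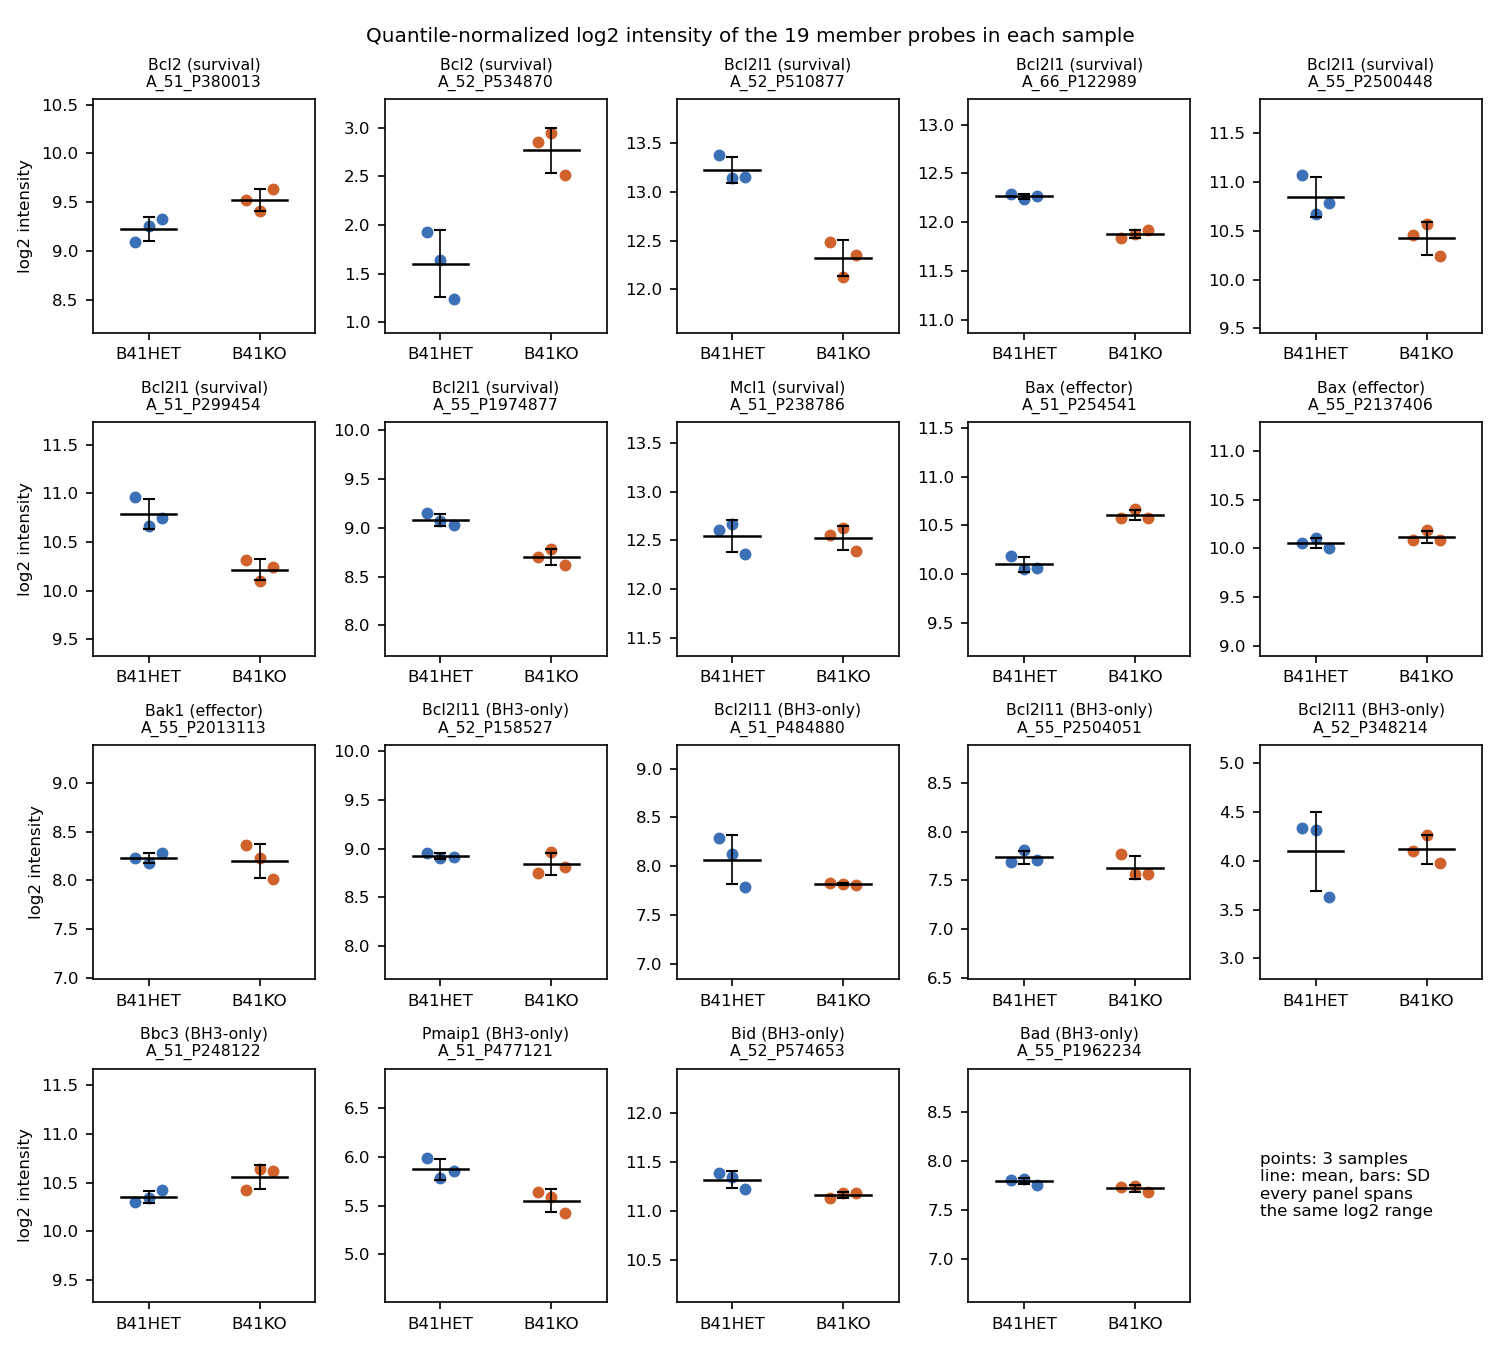
Quantile-normalized log2 intensity (y axis) of each of the 19 member probes in the 3 B41HET (blue) and 3 B41KO (orange) samples, with the mean as a line and the SD as bars, every panel spanning the same log2 range around its own level. The B41KO samples lie below all B41HET samples on the 5 *Bcl2l1* probes and above them on both *Bcl2* probes and on a single *Bax* probe.

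Among the survival genes, *Bcl2l1* had the lowest adjusted p of the members. Its brightest probe, A_52_P510877, read 13.38, 13.14 and 13.15 in B41HET and 12.49, 12.13 and 12.35 in B41KO. Every B41KO sample lay below every B41HET sample, and the log2 fold change was -0.90 (SE 0.12, n = 3 per genotype, adjusted p = 0.019, limma), a level 1.86-fold lower. The probe A_51_P299454, designed on the same transcript, read 10.96, 10.66 and 10.75 in B41HET and 10.31, 10.10 and 10.24 in B41KO, and was called as well (log2 fold change -0.58, SE 0.11, adjusted p = 0.0415, limma). The other 3 probes of *Bcl2l1* were also without overlap but missed the fold threshold, and A_55_P2500448 missed the adjusted p as well. Their log2 fold changes were -0.39 for A_66_P122989 (12.29, 12.24 and 12.27 against 11.84, 11.88 and 11.92, adjusted p = 0.0307, limma), -0.42 for A_55_P2500448 (11.07, 10.67 and 10.79 against 10.46, 10.57 and 10.24, adjusted p = 0.152, limma) and -0.38 for A_55_P1974877 (9.15, 9.07 and 9.03 against 8.70, 8.78 and 8.62, adjusted p = 0.0498, limma). All 5 probes thus had a negative difference, but not of one size. Within each array, the distance of the brightest probe to the other four narrowed in B41KO by 0.32 to 0.52 on the log2 scale, without overlap between the genotypes for any pair (exact permutation p = 0.1, two-sided, the smallest possible, n = 3 per genotype). The 5 probes were designed on 3 RefSeq transcripts of the gene, and which transcripts each of them detects in these cells was not tested.

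The call of *Bcl2l1* was lost when most single samples were left out. Leaving out a sample gave the brightest probe log2 fold changes of -0.98 to -0.81 with adjusted p = 0.0418 to 0.0703 (limma), past the threshold only without B41KO replicate 1. Row 1 of the slide held the B41HET arrays and that of B41KO replicate 1, and row 2 held B41KO replicates 2 and 3. A fit that blocks on the slide row compares genotype only within row 1, with B41KO replicate 1 alone. It gave a log2 fold change of -0.73, which thus rests on a single B41KO array. *Bcl2l1* is highly expressed in the erythroid lineage, and of 6 erythroid markers measured 2, *Hbb-bt* and *Alas2*, were called higher in B41KO and none lower, with a summed log2 signal of 14.97 to 15.08 in B41HET and 15.31 to 15.38 in B41KO. The part of these cells, and of the neutrophil and monocyte signal given above, in the level of *Bcl2l1* was not tested, and the gate on CD45low, CD11b+ and Cx3cr1+ cells is meant to leave both out.

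The genes whose brightest probe followed that of *Bcl2l1* most closely over the 6 arrays were *Cnot1* (Pearson r = 0.9998), a scaffold of the CCR4-NOT deadenylase complex, *Asb3* (r = 0.9993), a substrate adaptor of a ubiquitin ligase, and *Slco4a1* (r = 0.9977), an organic anion transporter. Of these, *Asb3* was called lower (log2 fold change -0.71, adjusted p = 0.0216, limma), and *Cnot1* and *Slco4a1* had log2 fold changes of -0.27 each. Such correlations over 6 arrays of 2 genotypes are a description, and 796 of 23430 genes compared had r above 0.95.

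*Bcl2*, the founding survival gene, has 2 probes that were both higher in every B41KO sample. The bright probe A_51_P380013 read 9.09, 9.26 and 9.33 in B41HET and 9.52, 9.41 and 9.63 in B41KO, a log2 fold change of 0.29 (95% interval 0.04 to 0.55, adjusted p = 0.165, limma) that did not pass the test. The other, A_52_P534870, read 1.93, 1.64 and 1.24 in B41HET and 2.85, 2.95 and 2.51 in B41KO. It was called higher (log2 fold change 1.16, SE 0.21, adjusted p = 0.0359, limma), yet it was well above background on none of the B41HET arrays and on 1 of the 3 B41KO arrays. The fold change of this probe is thus one between values at or near background in both genotypes, and it gives no bound on the difference. With normexp background correction in place of the scanner's, the log2 fold change of this probe was 0.09 (adjusted p = 0.272, limma), and no fit with a sample left out called it (0.98 to 1.31, adjusted p = 0.057 to 0.113, limma). Both probes are designed on different transcripts of the gene, and the other 18 member probes were well above background on all 6 arrays.

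*Mcl1*, a short-lived survival protein on which many myeloid cells depend, was not called on its single probe, which read 12.61, 12.67 and 12.36 in B41HET and 12.56, 12.63 and 12.39 in B41KO. The samples interleaved, and the 95% interval of the log2 fold change ran from -0.31 to 0.27 (adjusted p = 0.944, limma).

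**Figure D2:**
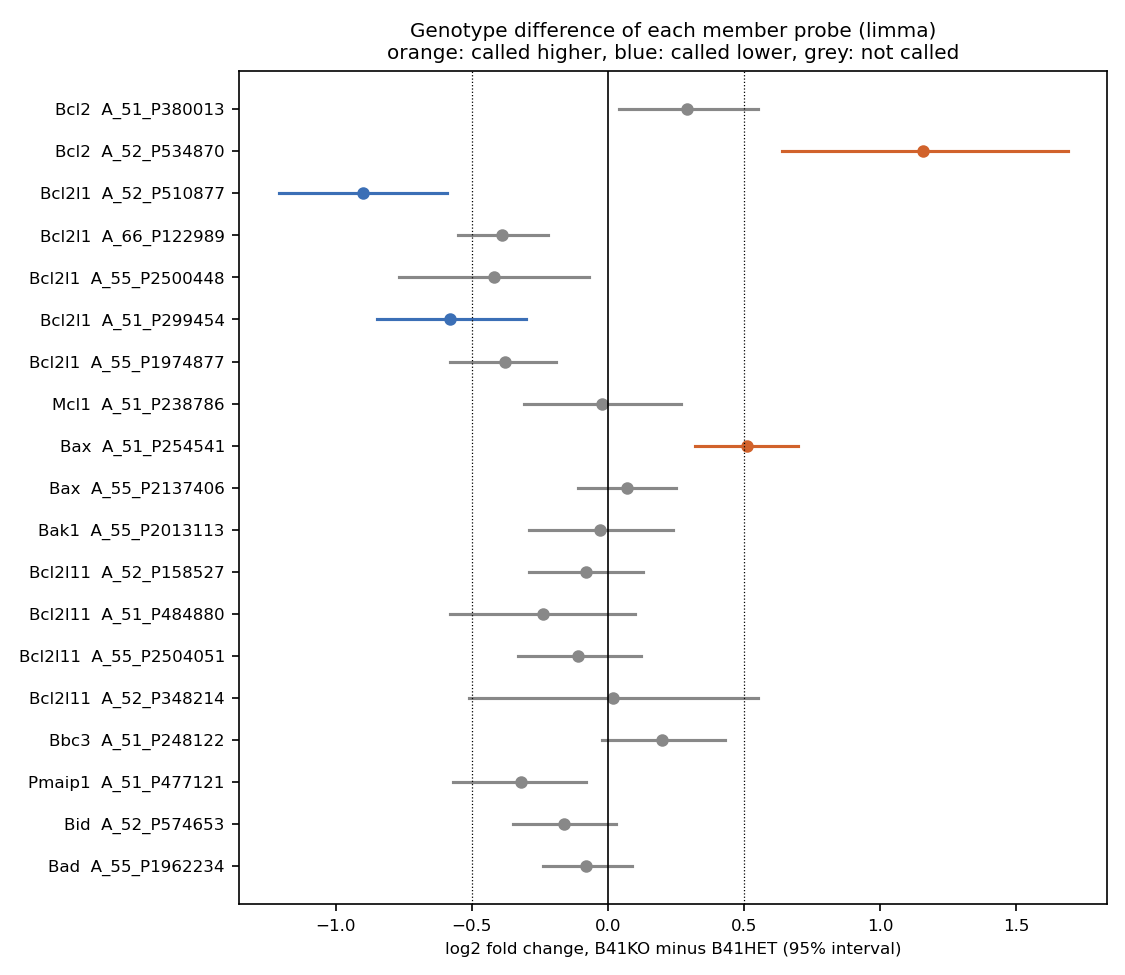
Log2 fold change of B41KO minus B41HET (x axis) for each of the 19 member probes, with the 95% interval from limma as a line and the fold threshold of 0.5 dotted. The 5 *Bcl2l1* intervals lie below 0 with points from -0.90 to -0.38, the 2 *Bax* probes lie apart at 0.51 and 0.07, and the intervals of *Mcl1*, *Bak1*, *Bcl2l11*, *Bbc3*, *Bid* and *Bad* include 0.

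Of the effectors, *Bax* rose on a single probe. The probe A_51_P254541 read 10.19, 10.05 and 10.06 in B41HET and 10.58, 10.67 and 10.58 in B41KO, a log2 fold change of 0.51 (SE 0.08, adjusted p = 0.0233, limma), or 1.42-fold. The probe A_55_P2137406, designed on the same transcript, read 10.05, 10.11 and 10 in B41HET and 10.08, 10.19 and 10.08 in B41KO, with overlap between the genotypes and a log2 fold change of 0.07 (95% interval -0.11 to 0.25, adjusted p = 0.65, limma). The probes of *Bax* therefore disagreed: their difference within an array was larger in each B41KO sample than in any B41HET sample, by 0.44 on average (exact permutation p = 0.1, two-sided, the smallest possible, n = 3 per genotype). The called probe lies just past the fold threshold, and its log2 fold change of 0.49 with arrays shifted to their 75th percentile missed it, as did that of 0.48 with normexp (adjusted p = 0.00169, limma). With a sample left out its log2 fold change was 0.48 to 0.56 (adjusted p = 0.055 to 0.0941, limma), no longer past the threshold for any sample. Blocking on the slide row, which rests on a single B41KO array, gave 0.48.

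*Bak1*, the other effector, read 8.23, 8.18 and 8.28 in B41HET and 8.36, 8.23 and 8.01 in B41KO. The B41KO samples lay on both sides of the B41HET samples, and the log2 fold change was -0.03 (95% interval -0.29 to 0.24, adjusted p = 0.91, limma).

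None of the BH3-only genes was called. *Pmaip1* (Noxa), which neutralises *Mcl1*, had the difference farthest from 0 among them, with 5.99, 5.78 and 5.85 in B41HET and 5.64, 5.59 and 5.42 in B41KO. The genotypes did not overlap, but the log2 fold change of -0.32 (95% interval -0.57 to -0.08, adjusted p = 0.121, limma) did not pass the test. *Bid*, which caspase-8 cleaves to link death receptors to mitochondria, read 11.39, 11.35 and 11.22 in B41HET and 11.13, 11.18 and 11.18 in B41KO, also without overlap (log2 fold change -0.16, 95% interval -0.35 to 0.03, adjusted p = 0.283, limma). *Bad*, which growth factor signalling holds in check by phosphorylation, read 7.81, 7.82 and 7.76 against 7.73, 7.75 and 7.68, without overlap and with a log2 fold change of -0.08 (95% interval -0.24 to 0.09, adjusted p = 0.566, limma).

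*Bbc3* (Puma), a target of p53 that binds all survival proteins of the family, had a positive difference, unlike the brightest probes of the other BH3-only genes. It read 10.30, 10.34 and 10.42 in B41HET and 10.42, 10.64 and 10.62 in B41KO, where the lowest B41KO and the highest B41HET sample met (log2 fold change 0.20, 95% interval -0.02 to 0.43, adjusted p = 0.255, limma). *Bcl2l11* (Bim), which drives the death of many blood cells when growth factors are withdrawn, overlapped between the genotypes on each of its 4 probes. Its brightest probe, A_52_P158527, read 8.96, 8.90 and 8.91 in B41HET and 8.75, 8.97 and 8.81 in B41KO (log2 fold change -0.08, 95% interval -0.29 to 0.13, adjusted p = 0.638, limma). The other 3 probes had log2 fold changes of -0.24, -0.11 and 0.02, with adjusted p = 0.367, 0.56 and 0.975 (limma).

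Since *Bhlhe41* belongs to a class of factors that bind the E-box CACGTG, the RefSeq windows from 250 bases before to 50 bases after each start (GRCm38.p6) were searched for these letters, which read the same on both strands. Of the members, 9 genes with 15 windows were in the table. The letters stood in 2 of the 15 windows (13.3%), against 2349 of 32851 windows of all genes (7.15%), and in 2 of the 9 genes (22.2%), against 2187 of 27025 (8.09%). The window of *Bax* holds them at 2 places, whose first bases lie 9 bases upstream and 36 bases downstream of the start. For *Bbc3*, 1 of its 3 windows holds them, 64 bases upstream of the start it belongs to. This match lies downstream of the other 2 *Bbc3* starts, so only 30 bases around it are shown. The letters are not in the 3 windows of *Bcl2l1*. The 250 bases upstream of *Bax*, which carry the first of its matches (chr7:45466899-45467148, minus strand), and the 30 bases around the match of *Bbc3* (chr7:16310355-16310384, plus strand) are shown because they are the matches among the members, 5′ to 3′ on the strand of the gene with the E-box in capitals.
Bax: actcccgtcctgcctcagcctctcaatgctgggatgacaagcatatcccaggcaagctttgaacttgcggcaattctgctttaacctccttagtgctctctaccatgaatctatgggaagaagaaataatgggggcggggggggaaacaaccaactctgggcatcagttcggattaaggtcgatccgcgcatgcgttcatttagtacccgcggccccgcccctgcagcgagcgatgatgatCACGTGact
Bbc3: gcggggcgggcgCACGTGgcggcgtcgagg
These matches describe the sequence, and binding was not measured on these arrays.

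Beyond the 10 genes, 79 of 81 listed genes of the cell death pathway were measured. By the brightest probe, 2 rose, 3 fell and the rest were not called, so that 6.33% were called, near the 5.49% of all genes, and their median log2 fold change was -0.08. Another pair, *Bnip3* (log2 fold change 0.39, adjusted p = 0.0466, limma) and *Stat3* (-0.34, adjusted p = 0.0485, limma), passed the adjusted p and missed the fold threshold. The 2 that rose were both relatives of *Bcl2* with a survival role, out of 16 relatives measured. *Bcl2a1d* (A1), a survival gene induced by NF-kB in myeloid cells, read 10.58, 10.56 and 10.14 in B41HET and 11.26, 11.30 and 11.22 in B41KO, with no overlap and a log2 fold change of 0.83 (SE 0.14, adjusted p = 0.0278, limma). Its near-identical copies *Bcl2a1a* and *Bcl2a1b* were not matched to a probe, and the signal may come from any of them, so the assignment to *Bcl2a1d* is uncertain. *Bcl2l2* (Bcl-w) read 5.99, 5.72 and 5.66 in B41HET and 6.45, 6.57 and 6.34 in B41KO (log2 fold change 0.66, SE 0.12, adjusted p = 0.0354, limma). The other 14 relatives were not called, and 3 of them did not rise well above background on an array.

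Of 18 upstream regulators of the family, 2 fell and none rose, where 4.05% of all genes were called lower and 1.44% higher. *Atf4*, the transcription factor that the integrated stress response translates, read 11.78, 11.90 and 11.77 in B41HET and 10.79, 10.81 and 10.67 in B41KO, with a log2 fold change of -1.05 (SE 0.08, adjusted p = 0.0045, limma). Its other probe had a log2 fold change of -0.12 (adjusted p = 0.408, limma), so the probes of *Atf4* disagreed. *Ddit3* (CHOP), a target of *Atf4* that induces death genes under prolonged stress, read 11.65, 11.57 and 11.37 in B41HET and 10.89, 10.54 and 10.85 in B41KO (log2 fold change -0.77, SE 0.13, adjusted p = 0.0304, limma). The brightest *Atf4* probe and the *Ddit3* probe were lower in all 3 B41KO samples than in any B41HET sample, whereas the other *Atf4* probe overlapped between the genotypes. Markers of activation during cell isolation moved with the genotype too: 6 of 12, *Fos*, *Fosb*, *Jun*, *Atf3*, *Dusp1* and *Hspa1a*, were called lower, none higher, and the summed log2 signal of the 12 was 16.55 to 16.63 in B41HET and 15.96 to 16.02 in B41KO. Their part in the levels of *Atf4*, *Ddit3* and *Bcl2l1* was not tested.

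Downstream of the mitochondria, none of 20 genes of the death machinery was called (median log2 fold change -0.10), and none of 11 genes of the death receptor pathway (median 0.16). Of 14 targets of p53, *Perp*, a membrane protein of desmosomes, fell (5.19, 5.59 and 5.63 in B41HET and 4.73, 4.73 and 4.89 in B41KO, log2 fold change -0.69, SE 0.14, adjusted p = 0.0477, limma), and the other 13 were not called. The call of *Atf4* held with any sample left out, that of *Bcl2a1d* without B41HET replicate 3 alone (log2 fold change 0.70, adjusted p = 0.0376, limma) and that of *Perp* without B41HET replicate 1 alone (-0.82, adjusted p = 0.0375, limma). *Perp* was also not called with arrays shifted to their 75th percentile (log2 fold change -0.58, adjusted p = 0.0869, limma) or with normexp (-0.29, adjusted p = 0.0224, limma), and *Bcl2l2* not with normexp (0.44, adjusted p = 0.00401, limma). The calls of *Bcl2l2* (adjusted p = 0.0503 to 0.123, limma) and *Ddit3* (adjusted p = 0.0592 to 0.107, limma) were lost with any sample left out. The fit with the slide row as a block rests on a single B41KO array. Its log2 fold changes of the 5 genes were 0.83 for *Bcl2a1d*, 0.66 for *Bcl2l2*, -1.02 for *Atf4*, -0.64 for *Ddit3* and -0.74 for *Perp*.

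**Figure D3:**
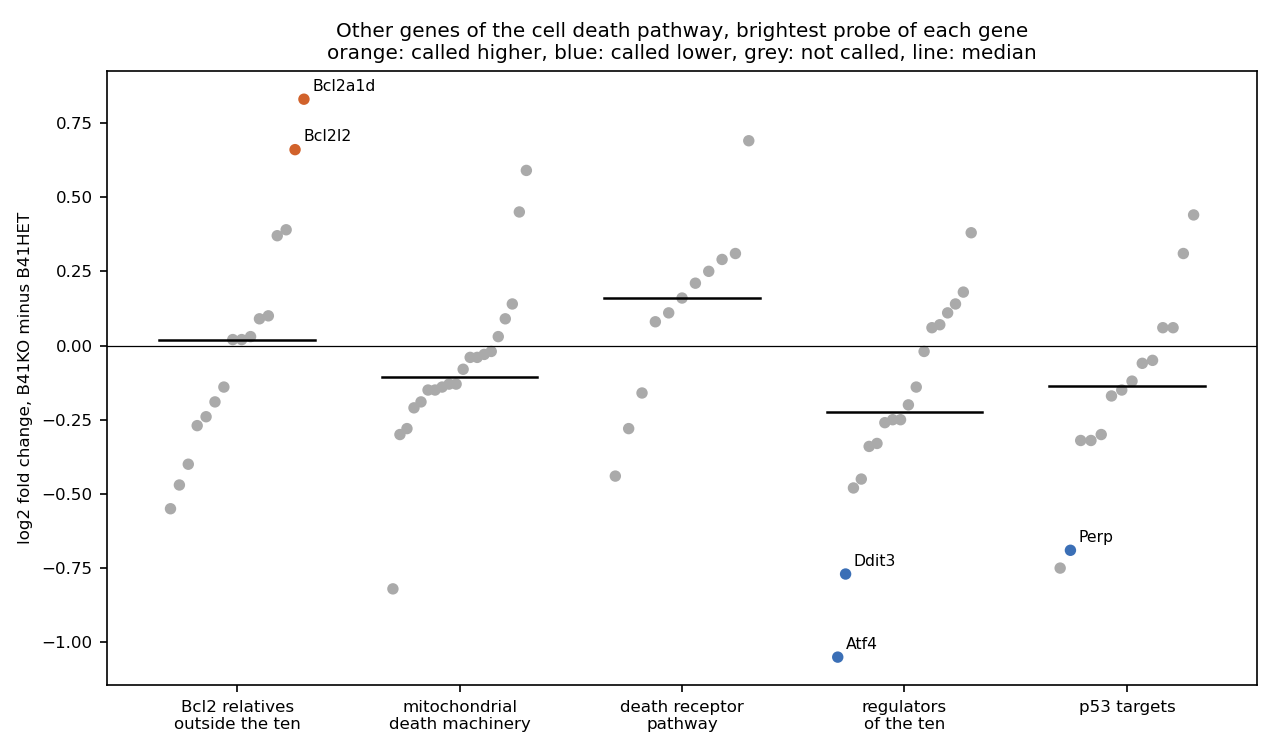
Log2 fold change of B41KO minus B41HET (y axis) for the brightest probe of each of the 79 measured genes in 5 lists of the cell death pathway, with called genes coloured and named and the list's median as a line. The 5 called genes are *Bcl2a1d* and *Bcl2l2* above 0 and *Atf4*, *Ddit3* and *Perp* below 0, and the medians lie between -0.22 and 0.16.

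**Figure D4:**
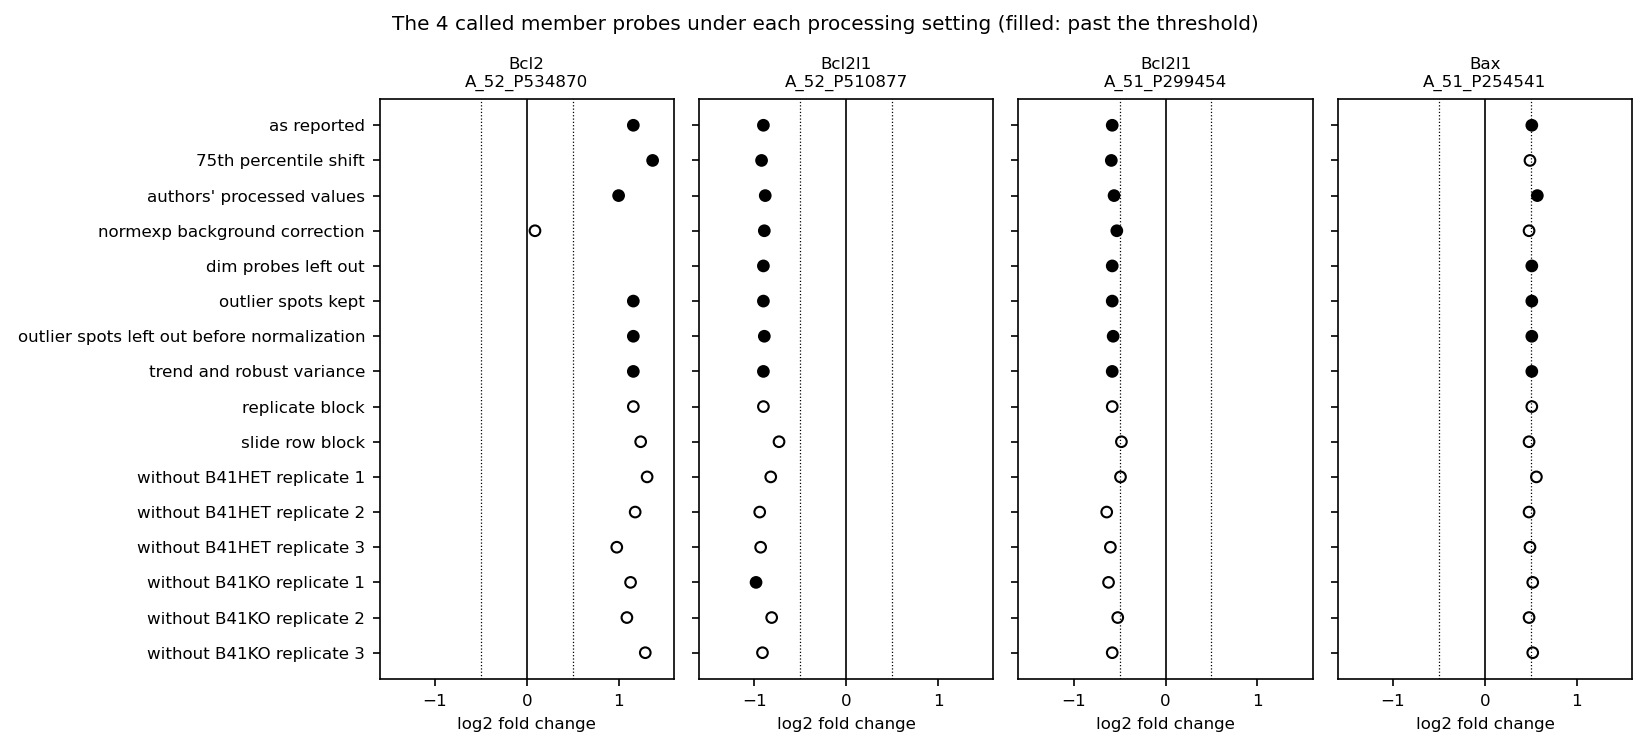
Log2 fold change (x axis) of the 4 called member probes under each processing setting, filled where the value passed both thresholds, with the fold threshold of 0.5 dotted; the dim *Bcl2* probe has no value once dim probes are left out. The 4 probes keep their direction throughout, while neither block and only 1 of the 6 settings with a sample left out keeps any of them past the threshold.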

How the data were processed

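Total RNA of sorted microglia was labelled with Cy3 and hybridised to 1-colour Agilent SurePrint G3 Mouse arrays, 3 per genotype, all on 1 slide. The authors deposited scanner output made with Feature Extraction 11.5.1.1, whose processed intensity per spot is background-subtracted within each array and not normalized between arrays. They also deposited a table of log2 values with scale and centring unstated. Its columns each had a median of 5.106 and ranked the probes as their arrays did (Spearman correlation of 1 as rounded), so it was read as quantile-normalized and used as an alternative.

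Control spots were left out (59305 of 62976 spots kept), quantile normalization was applied to the log2 processed intensities of the 6 arrays, outlier-flagged spots (95 to 136 on an array) were dropped afterwards, and spots of a probe were averaged. Probes with a value in at least 2 samples per genotype were tested with limma 3.58.1 in R 4.3.3, genotype being the only term, as the methods name quantile normalization and limma. Adjustment (Benjamini-Hochberg) ran over every tested probe. Python 3.11.15 and matplotlib 3.10.9 were used for the figures. The model was tested on simulated data. A first criterion, on how many changed probes were called, was missed and was replaced after that was seen by criteria on bias, direction, false calls and the recovery of probes with a low spread.

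Probes were named through RefSeq transcripts on GRCm38.p6 (33767 probes, 59.7%). The brightest probe stood for a gene in counts of genes. No array coordinates are given, as the design names an older build. The promoter windows were taken from the RefSeq table of the same assembly, which was read as given on the strand of the gene: TATAAA stood at the usual place in 288 of 16291 minus-strand windows as given and in 52 if reversed. The genes named are all members with every probe, the genes called in each pathway list, at most 8 per list, and the 3 genes most like *Bcl2l1*, with marker genes where a result needs them. Outside that rule, *Bnip3* and *Stat3*, the pathway genes that passed the adjusted p without being called, and *Bcl2a1a* and *Bcl2a1b*, copies of a called gene, were named after the values were seen. The members and lists were chosen with earlier results of these data known. Alternatives were other normalizations and background correction (normexp with an offset of 50, on median spot signals as the files hold no mean), a filter on dim probes (3 or more arrays well above background), outlier spots kept or dropped before normalization, a trended robust variance, blocks for replicate number or slide row, leaving out every sample in turn, and no fold threshold. P-values measure the spread between these pooled samples, and the number of arrays limits the precision.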

Additional observations from a re-analysis of the deposited data

How the results depend on the processing

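Each of the 4 called member probes, and each of the 5 called pathway genes, kept its direction under every alternative that gave a value. Calls held less well. Of all probes, 2883 were called (971 higher, 1912 lower, 33.7% of calls higher). The shift to the 75th percentile, which moved the median log2 fold change of all probes from 0.014 to 0.127, gave 2828 calls with 1305 higher and 1523 lower (46.1% higher). It called 3 member probes, 1 of them higher, and 1 member gene. Normexp called 1501 probes (417 higher, 1084 lower), 2 member probes with 0 higher, 1 member gene and 3 pathway genes, with *Bcl2l2* and *Perp* under the fold threshold. Without dim probes 1 member probe was called higher, as the dim *Bcl2* probe was not tested. Without the fold threshold 4 member probes were lower in place of 2. Leaving outlier spots out before normalization, chosen after seeing the data, gave 2867 calls and the same number of member calls, 4.

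With the replicate block, 42 probes were called (2 higher, 40 lower), and 0 member probes, member genes and pathway genes. The deviations of same-numbered samples correlated at 0.028, 0.014 and 0.048, so the numbers were not taken to pair the samples. With the slide row block, where genotype is compared within row 1 against a single B41KO array, 448 probes were called (185 higher, 263 lower) and again 0 of the members and pathway genes, by limma. The cause of these changes was not tested, beyond fewer samples or degrees of freedom in the block and leave-out fits.

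With a sample left out, 803 to 1498 probes were called (244 to 501 higher, 559 to 1010 lower), 0 to 1 member probes (0 higher, 0 to 1 lower), 0 to 1 member genes and 1 to 2 pathway genes. The 1 member call came without B41KO replicate 1 and was the brightest *Bcl2l1* probe. *Atf4* stayed past the threshold with any sample left out (adjusted p = 0.0212 to 0.0293, limma) and not with either block. Values near 0 that changed sign, none of them called, were *Mcl1* (0.04 with the authors' values, 0.01 with normexp and with the slide row block, -0.12 to 0.05 with a sample left out), *Bak1* (0.01 with normexp, 0.13 with the slide row block, -0.11 to 0.07 with a sample left out), *Bcl2l11* probe A_55_P2504051 (0.03 with the slide row block) and *Bcl2l11* probe A_52_P348214 (-0.21 to 0.14 with a sample left out).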
